A study of Mus musculus with 12 samples.

Results

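The genes that set the pace of the G1 phase were followed across the 4 groups of the experiment. The 10 genes are the D-type cyclins Ccnd1, Ccnd2 and Ccnd3, the E-type cyclins Ccne1 and Ccne2, the CIP/KIP inhibitors Cdkn1b and Cdkn1c, and the INK4 inhibitors Cdkn2b, Cdkn2c and Cdkn2d. They were taken from the table of 24824 genes by symbol. 9 of the 10 had a row and all 9 passed the filter on low values, a mean FPKM of at least 1 over the 12 libraries, as did 10615 genes in all. Cdkn2b was not analysed here.

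D-type cyclins join CDK4 and CDK6 early in G1 and start the phosphorylation of the retinoblastoma protein, which frees E2F factors to switch on the genes of DNA replication. E-type cyclins join CDK2 and complete that step at the entry to S phase. INK4 proteins bind CDK4 and CDK6 and keep D-type cyclins off them, whereas CIP/KIP proteins bind cyclin-CDK complexes, above all those of CDK2. In the liver, hepatocytes rest outside the cycle and Ccnd1 is the cyclin best known for their return to it after loss of tissue.

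AML12 is a mouse hepatocyte line, immortalized from animals carrying a transforming growth factor alpha transgene, and all samples were labelled wild type. Group A was left untreated. Group B received 300 μM CuCl2 with 40 nM elesclomol, an ionophore that carries copper into cells (Cu/ES). Group C received Cu/ES together with 1000 μM taurocholic acid (TCA), a conjugated bile acid, and group D received 1000 μM TCA alone, each over 24 h. Each group had 3 libraries of polyadenylated RNA. The labels do not say that the 3 came from separate cultures, so the errors measure the spread between these libraries, which may be technical. The comparisons ask what Cu/ES did (group B vs. A), what TCA added to it (C vs. B), what TCA did alone (D vs. A), and what Cu/ES did in the presence of TCA (C vs. D). Every group stands in more than 1 of them, so the comparisons are not independent.

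The values are FPKM, fragments per kilobase of gene and per unit of library total, which allow levels to be set side by side between genes. Library totals recovered from the spacing of the values ran from 29112342 to 34909087 reads in groups B and C and from 38290382 to 39772346 in groups A and D. Of the defining hepatocyte markers, Alb was at 0 FPKM and Hnf4a at 0 in every library of groups A and D, and 3 of the 8 listed markers with a row passed the filter, while Krt8 stood at 344 ± 37.7 FPKM in group A (mean ± SD, n = 3, as throughout). Means over groups A to D were 0.00863, 1.86, 1.11 and 0 FPKM for Apoa1 and 0.0074, 0.718, 0.537 and 0 for Trf. Those for Apoa2 were 1.06, 0.713, 0.696 and 0.926 FPKM. Vim, of the fibroblast and stellate cell list, stood at 2080 ± 87.2 FPKM in group A and 330 ± 32.6 in group B. The sum of that list, most of it Vim, came to between 1814 and 2339 FPKM over groups A and D. It came to between 154 and 354 over groups B and C. Markers of other cell types also moved. The summed endothelial list lay between 0.865 and 1.25 FPKM over groups A and D. It lay between 6.83 and 10.5 in group B and between 16.8 and 19.8 in group C, mostly through Pecam1. Pecam1 rose past both thresholds in B vs. A (2.65) and C vs. B (1.15). Over groups A, B and C the means were 0.740, 0.933 and 1.60 FPKM for Cdh5 and 0.0637, 0.316 and 0.563 for Kdr. Tek and Stab2 had means of at most 0.194 FPKM in any group, and that of Tek went from 0.00173 in group A to 0.194 in group C. Sox9, of the cholangiocyte list, rose in B vs. A (2.19), as did the fetal liver gene Afp (2.53). Other genes of these lists went the other way: Krt19 of the cholangiocyte list (-1.78) and Krt18 of the hepatocyte list (-1.79) fell past both thresholds. The summed macrophage list ran from 72.5 to 102 FPKM in group A and from 24.1 to 37.0 over the other groups, nearly all of it Cd68, a lysosomal gene that fell in B vs. A (-1.71) and D vs. A (-1.46). The defining macrophage genes Adgre1 and Ptprc stayed under 0.1 FPKM in every library, while Csf1r had means of 0.0221, 0.177 and 0.337 FPKM in groups A, B and C. The part of these cell type markers in the results below was not tested.

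The 10 genes were chosen from their known roles and on their FPKM values across groups A to D, which were known when the list was made. Their differences are therefore given as descriptions, each with its standard error and with whether it passed the thresholds, and without p-values. The thresholds were an adjusted p of 0.05 in limma with Benjamini-Hochberg adjustment over the 10615 genes, and an absolute log2 fold change above 1. Fold changes are on the log2(FPKM + 1) scale, which understates the change of low genes, and are quoted with their standard error.

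RefSeq promoter windows, from 250 bases before to 50 bases after a start site in build GRCm38.p6, were found for 6 of the 10 genes, 5 of them with a row in the table. The stretches before the start are shown for 3 genes that fell together under Cu/ES, Cdkn1b, Cdkn2d and Ccnd3, and for Ccne1, which moved less. Capitals mark the searched motifs, on either strand: the GC box GGGCGG, the heat shock element GAANNTTC or TTCNNGAA, and the metal response element TGCACNC or TGCGCNC. 
Cdkn1b, chr6:134920151-134920400, plus strand: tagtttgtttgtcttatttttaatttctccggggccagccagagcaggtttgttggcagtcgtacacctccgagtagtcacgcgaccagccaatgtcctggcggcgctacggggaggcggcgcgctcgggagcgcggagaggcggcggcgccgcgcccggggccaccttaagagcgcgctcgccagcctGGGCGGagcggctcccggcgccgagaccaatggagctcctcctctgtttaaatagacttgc
Cdkn2d, chr9:21291210-21291459, minus strand: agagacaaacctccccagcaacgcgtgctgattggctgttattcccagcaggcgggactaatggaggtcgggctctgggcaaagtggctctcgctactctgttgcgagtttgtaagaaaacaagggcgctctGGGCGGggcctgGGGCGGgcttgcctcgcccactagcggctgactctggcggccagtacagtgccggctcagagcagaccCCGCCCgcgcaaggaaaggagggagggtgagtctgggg
Ccnd3 (window 2), chr17:47593217-47593466, plus strand: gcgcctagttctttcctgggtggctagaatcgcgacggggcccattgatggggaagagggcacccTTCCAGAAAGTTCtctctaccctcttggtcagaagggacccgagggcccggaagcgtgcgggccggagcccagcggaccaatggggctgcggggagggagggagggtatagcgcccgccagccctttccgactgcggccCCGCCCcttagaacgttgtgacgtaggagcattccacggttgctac
Ccne1, chr7:38107491-38107740, minus strand: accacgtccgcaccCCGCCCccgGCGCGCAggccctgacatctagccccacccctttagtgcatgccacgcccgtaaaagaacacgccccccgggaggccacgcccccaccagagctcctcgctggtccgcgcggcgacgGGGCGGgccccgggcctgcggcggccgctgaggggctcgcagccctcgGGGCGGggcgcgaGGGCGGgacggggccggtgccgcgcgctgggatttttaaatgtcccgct

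A GC box, the letters read by factors of the Sp1 family, stood in 7 of the 8 windows of these genes, against 35.7% of 32851 windows of the same length. The overlapping pair of heat shock elements of Ccnd3, capitalized as 1 run above, was in 1 of the 8 windows, against 15.1% of all. Metal response elements were in 4 of the 8 windows, against 25.7%. The E2F motifs TTTGGCGC, TTTCCCGC, TTTCGCGC and TTTGCCGC were in 0 of the 8 windows, against 2.26% of all, and the AP-1 motif TGANTCA was in 0, against 7.81%. The cAMP response element TGACGTCA was in 1 window, that of Cdkn2b, against 1.79%. These are matches of letters in a short window and were not tested as sites.

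In untreated cells Ccnd1 was the most abundant of the 9 genes, at 78.9 ± 17.8 FPKM. Ccnd3 followed at 35.4 ± 0.182 FPKM, then Cdkn1b at 31.7 ± 2.94 and Cdkn2d at 28.8 ± 4.29, whose libraries overlapped. Ccnd2 (12.6 ± 0.228) and Cdkn2c (9.48 ± 0.525) came next, and Ccne2 (6.01 ± 0.977) and Ccne1 (5.17 ± 0.821) overlapped. Cdkn1c was lowest at 3.87 ± 0.203 FPKM, and each of its libraries lay under each library of Ccne1. In groups B and C this order was turned over: Cdkn1c was the highest and Ccne2 came second, with no overlap between them or with the gene below, and the means of the other 7 genes lay at or below 3.42 FPKM. Group D kept the order of group A except that Ccne1 stood above Ccne2.

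**Figure D1:**
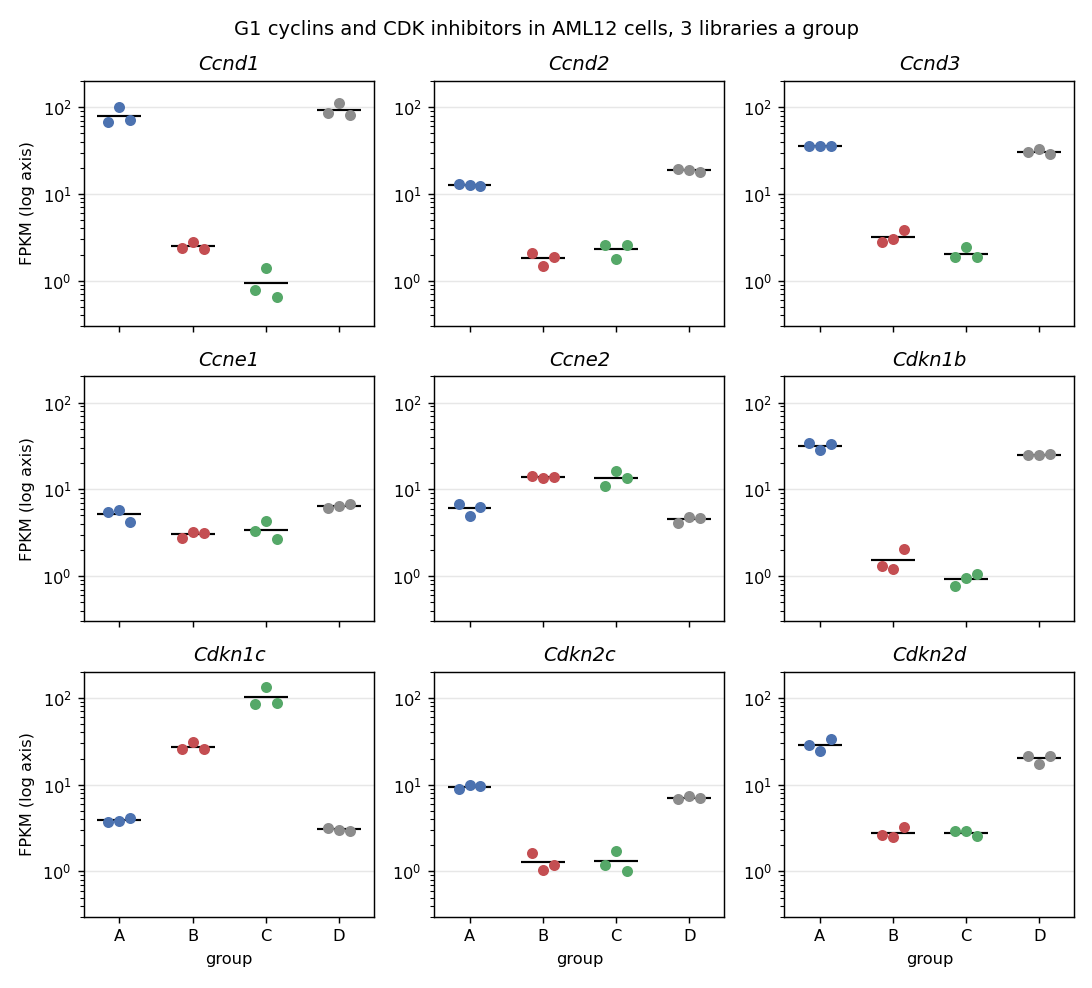
FPKM of the 9 genes in each library on log axes shared by all panels, by group (A untreated, B Cu/ES, C Cu/ES with TCA, D TCA); points are libraries and bars are means of 3. The D-type cyclins, Cdkn1b, Cdkn2c and Cdkn2d drop by a large factor from A to B, Ccne1 drops little, and Ccne2 and Cdkn1c are higher in B and C than in A and D.

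Under Cu/ES all D-type cyclins fell. Ccnd1 stood at 67.0, 99.5 and 70.4 FPKM in group A and at 2.39, 2.83 and 2.31 in group B. Every library of group B lay far below every library of group A, and the difference was -4.49 ± 0.17 on the log2 scale, rank 19 from the lowest among 10615 genes. The ratio of the means was 31.5. In RNA from a whole culture, fewer cells of a kind and less RNA per cell cannot be told apart.

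Ccnd3, the D-type cyclin with the broadest expression across tissues, stood at 35.2, 35.6 and 35.4 FPKM in group A and at 2.80, 3.04 and 3.83 in group B. The groups did not overlap, and the log2 fold change was -3.11 ± 0.10. Ccnd2 stood at 12.9, 12.6 and 12.4 FPKM in group A and at 2.07, 1.50 and 1.89 in group B. These did not overlap either, with a log2 fold change of -2.28 ± 0.10. Of the 3 genes, Ccnd2 therefore lost the least and Ccnd1 the most.

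The E-type cyclins parted. Ccne2 stood at 6.82, 4.92 and 6.27 FPKM in group A and at 14.4, 13.6 and 13.8 in group B. It rose 2.32-fold, with no overlap and a log2 fold change of 1.10 ± 0.13. Ccne1 stood at 5.51, 5.77 and 4.24 FPKM in group A and at 2.76, 3.23 and 3.16 in group B. Its libraries did not overlap either, but its log2 fold change of -0.60 ± 0.13 passed only the adjusted p and lay 0.50 above the median of all genes. The direction of Ccne1 depended on how libraries were scaled: it was 0.42 with median-ratio scaling and 0.76 with quantile normalization, both past the adjusted p.

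The CIP/KIP inhibitors moved in opposite directions. Cdkn1b, which encodes p27, stood at 33.7, 28.3 and 32.9 FPKM in group A and at 1.30, 1.21 and 2.05 in group B. Group B lay wholly below group A, 20.8-fold lower by the means, with a log2 fold change of -3.71 ± 0.12. Cdkn1c, which encodes p57 and is expressed from the maternal allele, stood at 3.74, 3.76 and 4.10 FPKM in group A and at 25.6, 30.9 and 25.8 in group B. It rose 7.09-fold with no overlap, a log2 fold change of 2.54 ± 0.14.

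The family's other member, Cdkn1a, which encodes the p53 target p21, is given for completeness. Its means in groups A, B, C and D were 210 ± 30.7, 216 ± 4.44, 229 ± 1.70 and 251 ± 31.3 FPKM. The B vs. A difference was 0.05 ± 0.10, which did not pass the adjusted p and lay 1.15 above the median of all genes. The direction depended on scaling: it was 1.33 with median-ratio scaling, past both thresholds, and -0.32 with TPM scaling, past the adjusted p alone. With quantile normalization it was -0.40. Cdkn2a, the remaining INK4 gene, was not analysed here.

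Both INK4 inhibitors with a row fell. Cdkn2d (p19) stood at 28.3, 24.7 and 33.3 FPKM in group A and at 2.66, 2.49 and 3.22 in group B. Cdkn2c (p18) stood at 8.91, 9.94 and 9.59 FPKM in group A and at 1.62, 1.04 and 1.18 in group B. Neither gene's groups overlapped, and the log2 fold changes were -2.97 ± 0.12 for Cdkn2d and -2.21 ± 0.12 for Cdkn2c.

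In group B vs. A, 2 of the 9 genes were higher and 6 lower past both thresholds. Over all genes tested, 10.1% were higher and 53.0% lower, so a fall was the commonest outcome in this comparison. The median of the 9 log2 fold changes was -2.28, and that of all 10615 genes was -1.10. Median-ratio scaling moved the median of all genes to 0.05 and the calls from 1070 up and 5622 down to 2880 up and 2551 down, while 2128 went up and 2663 down after quantile normalization. Under both scalings Ccnd1 (-3.36 and -3.83), Ccnd3 (-1.97 and -2.20), Cdkn1b (-2.66 and -2.76) and Cdkn2d (-1.85 and -1.97) stayed below 0 past both thresholds. Ccnd2 and Cdkn2c also stayed below 0, at -1.24 for each with median-ratio scaling and at -0.98 and -0.87 with quantile normalization.

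**Figure D2:**
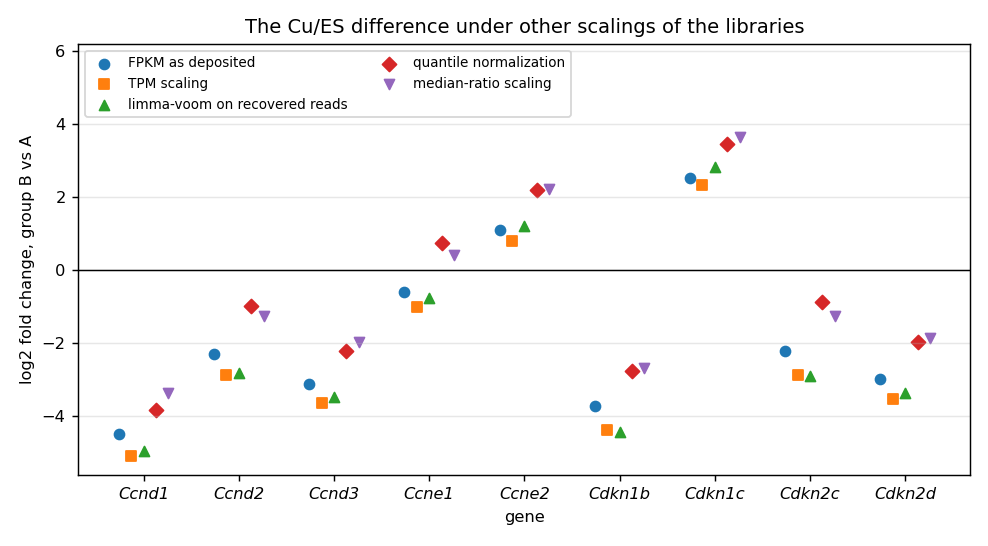
Log2 fold change of group B vs. A for the 9 genes, with FPKM as deposited and under 4 other scalings. Only Ccne1 changes side of 0, from -0.60 to 0.42 and 0.76, while Ccne2 and Cdkn1c stay above 0 and the other 6 genes stay below.

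Ratios between genes of the same library do not change when a library is multiplied by a single factor, as in TPM or median-ratio scaling, though they do under quantile normalization. E-type cyclins made up 8.20% ± 1.46 of the summed D-type and E-type cyclin FPKM in untreated cells and 7.19% ± 0.939 with TCA alone. With Cu/ES the share was 69.2% ± 1.23, and with Cu/ES and TCA it was 75.9% ± 2.69. No library of groups B or C came near those of groups A and D. The D-type sum was 127 ± 17.9 FPKM in group A and 7.55 ± 0.423 in group B, and the E-type sum was 11.2 ± 1.01 and 17.0 ± 0.156. Within the D-type family the shares of Ccnd1 in groups A to D were 61.7% ± 4.95, 33.3% ± 4.84, 17.6% ± 6.48 and 65.0% ± 2.90. The share of Ccnd2 ran the other way, from 10.1% ± 1.39 in group A to 24.1% ± 4.10 in group B and 43.9% ± 10.4 in group C.

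Within the E-type family there were 1.19 ± 0.316 units of Ccne2 FPKM for each unit of Ccne1 in untreated cells and 0.704 ± 0.0419 with TCA alone, against 4.60 ± 0.536 with Cu/ES and 4.06 ± 0.887 with both. Cdkn1b exceeded Cdkn1c 8.19 ± 0.762 times in group A and 8.19 ± 0.491 times in group D. In group B it was Cdkn1c that exceeded Cdkn1b, 19.3 ± 6.53 times, and in group C 112 ± 28.4 times. Cdkn2d exceeded Cdkn2c in every group, 3.04 ± 0.505 times in group A and 2.25 ± 0.557 times in group B, values that overlapped between libraries.

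**Figure D3:**
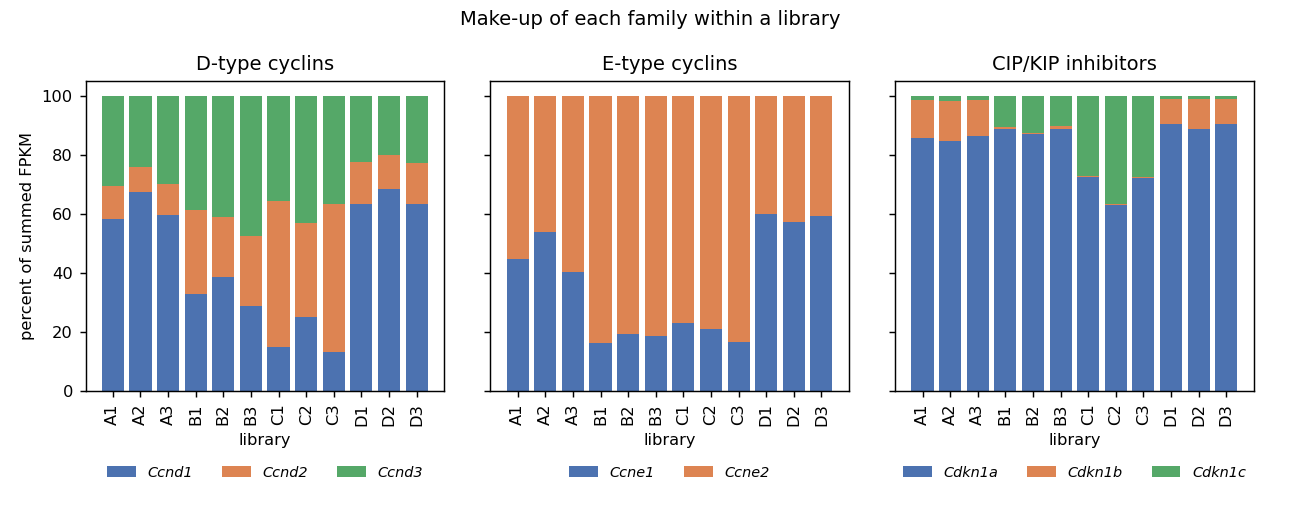
Share of each gene in the summed FPKM of its family, by library (letter for the group, digit for the replicate): D-type cyclins, E-type cyclins and CIP/KIP inhibitors. Ccnd1 takes 58.2% to 67.4% of the D-type sum in group A and at most 25.0% in group C, and Cdkn1c takes 27.2% to 36.7% of the CIP/KIP sum in group C.

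When TCA was added to Cu/ES, Cdkn1c stood at 85.2, 134 and 87.8 FPKM in group C, against 25.6, 30.9 and 25.8 in group B. All libraries of group C lay above group B, 3.73-fold higher by the means, with a log2 fold change of 1.84 ± 0.14, rank 3 from the highest of 10615 genes. Replicate 2 of group C was the highest library, and without it the log2 fold change was 1.63. Cdkn1c made up 11.2% ± 1.21 of the summed CIP/KIP FPKM in group B and 30.5% ± 5.38 in group C.

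Ccnd1 stood at 0.775, 1.41 and 0.657 FPKM in group C, against 2.39, 2.83 and 2.31 in group B. Each library of group C was below each of group B, a ratio of 2.65 between the means, and the log2 fold change of -0.87 ± 0.17 passed the adjusted p but not the fold threshold. These levels rest on 80 to 185 recovered reads in group C and 268 to 341 in group B. Without replicate 2 of group C the log2 fold change was -1.03, past both thresholds. In each of the 4 groups the library numbered 2 had the highest Ccnd1.

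Ccnd3 stood at 1.86, 2.42 and 1.86 FPKM in group C, against 2.80, 3.04 and 3.83 in group B. The groups did not overlap, and the log2 fold change of -0.47 ± 0.10 passed the adjusted p alone. Cdkn1b stood at 0.771, 0.953 and 1.04 FPKM in group C, on 54 to 81 reads, against 1.30, 1.21 and 2.05 in group B. These did not overlap either, but the fall of 0.38 ± 0.12 on the log2 scale lost the adjusted p in 4 alternatives, at -0.23 to -0.67. Among them were those without replicate 3 of group B or replicate 1 of group C, at -0.23 and -0.32.

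The other 5 genes did not pass the adjusted p in group C vs. B, and their libraries overlapped. Ccnd2 stood at 2.58, 1.80 and 2.55 FPKM in group C, a log2 fold change of 0.23 ± 0.10. Without replicate 2 of group C it was 0.34 and passed the adjusted p. Ccne1 stood at 3.30, 4.31 and 2.64 FPKM (0.11 ± 0.13) and Ccne2 at 11.0, 16.4 and 13.3 (-0.05 ± 0.13). Among the INK4 genes Cdkn2c stood at 1.19, 1.70 and 1.02 FPKM (0.01 ± 0.12) and Cdkn2d at 2.90, 2.88 and 2.54 (-0.00 ± 0.12).

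Of the 9 genes, 1 was higher and 0 were lower past both thresholds in group C vs. B, against 1.13% higher and 1.16% lower of all genes. By the adjusted p alone 1 was higher and 3 were lower, against 20.4% and 23.6% of all genes. The median of the 9 log2 fold changes was -0.00 and that of all genes -0.03.

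**Figure D4:**
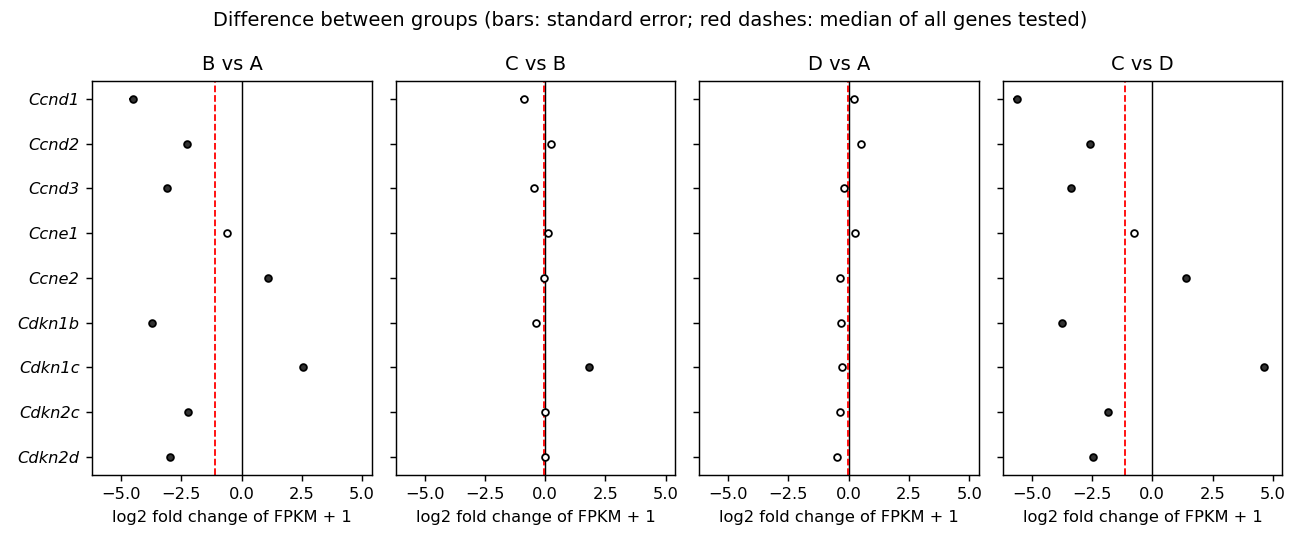
Log2 fold change of FPKM + 1 for the 9 genes in the 4 comparisons; bars are standard errors, filled points passed both thresholds, and the red dashed line is the median of all 10615 genes (-1.10, -0.03, -0.01 and -1.13 from left to right). Cdkn1c is the only filled point in C vs. B and none is filled in D vs. A.

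TCA alone moved these genes little. Ccnd2 stood at 19.1, 18.9 and 18.0 FPKM in group D, wholly above group A, and its log2 fold change of 0.53 ± 0.10 passed the adjusted p. Cdkn2d stood at 21.2, 17.4 and 21.6 FPKM in group D, wholly below group A, with a log2 fold change of -0.49 ± 0.12 that also passed it. Cdkn2c stood at 6.77, 7.33 and 7.11 FPKM, below every library of group A, and its fall of 0.38 ± 0.12 on the log2 scale passed the adjusted p, but not once any library of group A or D was left out (-0.32 to -0.42 over the 11 alternatives that lost it).

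Ccnd1 stood at 85.2, 112 and 80.6 FPKM in group D, overlapping group A, with a log2 fold change of 0.24 ± 0.17. Cdkn1b stood at 24.7, 24.6 and 25.4 FPKM (-0.33 ± 0.12), below every library of group A without passing the adjusted p. It passed in 8 alternatives, at -0.33 to -0.46, among them the replicate block and those without replicate 2 of group A, replicates 2 or 3 of group B, or replicate 2 of group C. Cdkn1c stood at 3.18, 3.04 and 2.92 FPKM (-0.27 ± 0.14), also below group A, and passed without replicate 2 of group C at the same fold.

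Ccnd3 stood at 30.1, 33.2 and 29.0 FPKM in group D (-0.20 ± 0.10), below every library of group A and not past the adjusted p. Ccne1 stood at 6.03, 6.40 and 6.78 FPKM (0.27 ± 0.13) and Ccne2 at 4.05, 4.81 and 4.66 (-0.34 ± 0.13), wholly above and wholly below group A, and neither passed it. Ccne2 passed without replicate 2 of group A (-0.46) and, at the same fold, without replicates 1 or 2 of group C.

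Past both thresholds, limma called 0 of the 9 genes in group D vs. A, against 0.0659% of all genes higher and 0.151% lower. At an unadjusted p under 0.05 there were 5 of the 9, against 35.8% of all genes. Past both thresholds, limma-voom on the recovered reads also called 0 of the 9, against 36 higher and 68 lower of all 10615 genes. By the adjusted p alone 1 of the 9 was higher and 2 were lower, against 10.5% and 11.5% of all genes.

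Groups C and D both received TCA and differed by Cu/ES. Ccnd1 was 98.0-fold lower in group C by the means, with a log2 fold change of -5.59 ± 0.17, rank 3 from the lowest of all genes. Cdkn1c was 33.6-fold higher, with a log2 fold change of 4.65 ± 0.14, rank 29 from the highest. Cdkn1b (-3.76 ± 0.12), Ccnd3 (-3.38 ± 0.10), Ccnd2 (-2.58 ± 0.10), Cdkn2d (-2.48 ± 0.12) and Cdkn2c (-1.82 ± 0.12) were lower and Ccne2 (1.39 ± 0.13) was higher. In all of these the libraries of the groups did not overlap. Ccne1, at -0.76 ± 0.13, passed the adjusted p alone, and its direction turned with median-ratio scaling (0.27) and quantile normalization (0.55).

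The C vs. D comparison put 2 of the 9 genes higher and 6 lower past both thresholds, against 11.2% and 53.3% of all genes. The interaction, that is the C vs. B difference less the D vs. A difference, passed the adjusted p with a higher value in 2 of the 9 genes and with a lower value in 1, against 17.7% and 19.8% of all genes.

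The partners of these cyclins were read from lists of pathway genes, made with earlier results of these data known. Their counts are therefore not independent support, and single genes of these lists are described here without p-values. Of 7 G1 kinases and activators, 0 rose and 3 fell past both thresholds in group B vs. A, with a median of -0.75. Over all genes tested, 10.1% rose and 53.0% fell there, with a median of -1.10. Ccnh, the cyclin of the kinase that activates other CDKs, stood at 20.4 ± 1.35 FPKM in group A and 2.91 ± 0.146 in group B (-2.45). Cdk6 (-1.26) also fell, as did the phosphatase gene Cdc25a, from 6.57 ± 0.0344 to 2.80 ± 0.458 FPKM. The median of the list turned above 0 under other scalings, to 0.46 with median-ratio scaling and 0.08 with quantile normalization, and Cdc25a turned to 0.04 and 0.38. Cdk6 no longer passed both thresholds, at -0.46 and -0.05, and Ccnh did, at -1.34 and -1.32. Cdk4, the kinase of the D-type cyclins, had means of 236 ± 8.08, 262 ± 12.2 and 141 ± 12.1 FPKM in groups A, B and C. Its log2 fold change in C vs. B of -0.89 passed the adjusted p alone.

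Of the 3 RB pocket protein genes, 2 fell past both thresholds under Cu/ES, against 53.0% of all genes. These were Rbl2 (-3.13), from 10.5 ± 0.425 to 0.320 ± 0.168 FPKM, and Rbl1 (-2.11). Both held with median-ratio scaling, but with quantile normalization Rbl1 stood at -0.77 and did not pass the fold threshold. The third, Rb1, turned from -0.76 to 0.25 and 0.61 under these scalings. Of 9 E2F and DP genes tested, 1 rose and 3 fell, against 10.1% and 53.0% of all genes. The repressor gene E2f6 (1.03) rose, and Tfdp2 (-2.07), which encodes a partner of E2F, the atypical repressor E2f8 (-1.68) and the activator E2f1 (-1.24) fell. Median-ratio scaling left 4 of the 9 higher and 1, Tfdp2, lower past both thresholds, against 2880 and 2551 of all 10448 genes tested there. E2f1 then stood at -0.07 and E2f8 at -0.60, and E2f6 did not pass the fold threshold with TPM scaling (0.71). Of 17 genes for the turnover of G1 cyclins and inhibitors, 1 rose and 9 fell, with a median of -1.03. These values lay near those of all genes, of which 10.1% rose and 53.0% fell, with a median of -1.10. Among the 9 that fell were Fbxo31 (-2.20) and Fbxo4 (-2.17), F-box genes linked to the removal of cyclin D1, and Skp2 (-1.66), whose product marks p27 for removal. With median-ratio scaling the turnover list had 3 genes higher, 2 lower and a median of 0.22. Of all 10448 genes tested there, 2880 were higher and 2551 lower, with a median of 0.05. Skp2 then stood at -0.63, while Fbxo31 and Fbxo4 stayed lower past both thresholds (-1.29 and -1.23). Quantile normalization took both under the fold threshold, at -0.88 and -0.83.

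The E2F targets that act at the G1/S step stood apart in direction from the D-type cyclins. Of 22 tested, 10 rose and 3 fell past both thresholds in group B vs. A, against 10.1% and 53.0% of all genes. Their median was 0.89 against -1.10 for all genes. The replicative helicase genes Mcm3 (2.12, from 39.8 ± 1.81 to 177 ± 2.89 FPKM) and Mcm5 (2.03) rose, and Tk1 (-3.63) and Ccna2 (-3.03), the S phase cyclin gene, fell. The median stayed above 0 under the 4 other scalings, from 0.53 with TPM scaling, where 5 rose, to 2.11 with median-ratio scaling, where 17 rose. Of all genes, 1059 of 12024 rose with TPM scaling and 2880 of 10448 with median-ratio scaling. In group C vs. B, 20 of the 22 values lay below 0, with a median of -0.54 against -0.03 for all genes. Past both thresholds 1 gene fell, Uhrf1 (-1.18), against 1.16% of all genes.

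All 6 G2/M genes fell past both thresholds in group B vs. A, against 53.0% of all genes, with a median of -3.46. Ccna2 is among them and was also counted in the E2F targets, so the lists are not separate. All 6 did so under the 4 other scalings too, where all-gene falls ran from 2551 of 10448 with median-ratio scaling to 7486 of 12024 with TPM scaling. They included the phosphatase gene Cdc25b (-4.71), from 57.7 ± 4.71 to 1.24 ± 0.174 FPKM, and the mitotic cyclin genes Ccnb2 (-4.30) and Ccnb1 (-3.90). Cdkn3, a CDK phosphatase gene of the other inhibitors listed, fell from 17.7 ± 0.766 to 0.439 ± 0.138 FPKM (-3.70). None of the 6 G2/M genes passed both thresholds in group C vs. B, against 1.13% of all genes higher and 1.16% lower. Their median was -0.11 there, and Ccnb2 stood at 2.07 ± 0.400 FPKM, against 2.01 ± 0.441 in group B.

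**Figure D5:**
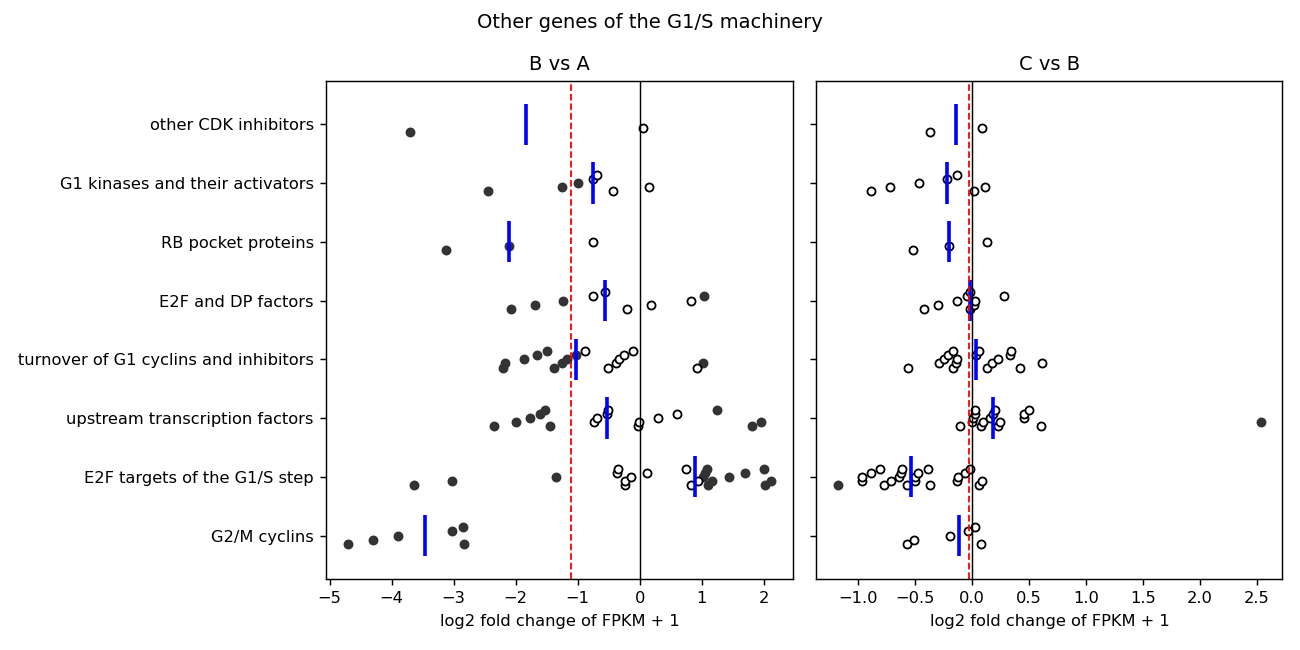
Log2 fold change of FPKM + 1 of other genes of the G1/S machinery in B vs. A and C vs. B, by list; each point is a gene, filled where it passed both thresholds, blue bars are list medians and the red dashed line is the median of all genes. In B vs. A the E2F targets have a median of 0.89 and the G2/M genes -3.46; in C vs. B the E2F targets have -0.54.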

How the data were processed

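RNA of AML12 cells was measured in 12 libraries, 3 in each of 4 groups named in the labels. The authors deposited FPKM values per library and gene; the submitters' processing notes name fastp, HISAT2, HTSeq and build GRCm39, with no versions, and do not state strand, so reads of a gene and an overlapping antisense gene cannot be told apart. The study's own comparisons, made with a count model, were not used. Here log2(FPKM + 1) of the 10615 of 24824 genes averaging 1 FPKM or more was fitted with limma 3.58.1 in R 4.3.3, in 1 model of the 4 groups with empirical Bayes moderation and a trend, leaving 8 residual degrees of freedom, with two-sided p-values adjusted by Benjamini-Hochberg. FPKM are relative to the library total, so a few abundant genes that rise lower all others. Reads were recovered from the spacing of the values: 100% of 22212 genes above 0 in at least 2 libraries came out whole in every library, within 0.02 reads. Recovered reads cover counting error only. Deviations of libraries with the same number from their group means correlated at 0.14 to 0.17 in all 3 pairs of groups A and B, a pairing seen in the data and not stated in the labels; the mean over the 18 same-number pairs of all groups was 0.125, against -0.059 for other pairs. The fits were checked on simulated data. Members and lists were chosen with earlier results of these data known; all members are described, and of each other list up to 4 genes per comparison, those with the largest change past both thresholds without overlap, or else the most abundant. Alternatives were another pseudocount, other filters, TPM, median-ratio and quantile scaling, a replicate block, no trend, only the groups compared, limma-voom on recovered reads, and each library left out. Promoters came from RefSeq (GRCm38.p6), and no coordinates of GRCm39 were used. Python 3.11.15 with pandas 2.3.3, numpy 2.4.6 and matplotlib 3.10.9 were used for tables and figures.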

Additional observations from a re-analysis of the deposited data

Results flagged for a closer look

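In 3 of the 9 genes the interaction term of the limma model, the effect of TCA with Cu/ES less its effect without, passed the adjusted p. Of all genes, 17.7% passed it with a higher value and 19.8% with a lower one. For Cdkn1c the difference between the effects was 2.10 ± 0.20 on the log2 scale (C vs. B 1.84, D vs. A -0.27), rank 2 from the highest of 10615 genes, and without replicate 2 of group C it was 1.89. For Ccnd1 it was -1.10 ± 0.24 (C vs. B -0.87, D vs. A 0.24), and -0.96 to -1.28 with any 1 library left out. For Cdkn2d it was 0.49 ± 0.16 (C vs. B -0.00, D vs. A -0.49), and it lost the adjusted p in 9 alternatives, at 0.38 to 0.51, among them those without replicates 1 or 3 of group A, 1 or 2 of group B, 1 of group C or 2 of group D. These genes were chosen with the values known, so the terms are descriptions and no p is given.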

How the results depend on the processing

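Of 971 fold changes of single genes under the alternatives, 923 kept their side of the adjusted p and, where past it, their direction. 24 lost the adjusted p, 20 gained it and 4 turned: Ccne1 in B vs. A was 0.42 with median-ratio scaling and 0.76 with quantile normalization, and in C vs. D 0.27 and 0.55. In 15 others that changed sign neither value passed. In C vs. B, 2 genes passed both thresholds with a pseudocount of 0.1, with TPM scaling and with limma-voom, Ccnd1 being the gene added, and 1 to 2 with each library left out. The counts in B vs. A, C vs. D and D vs. A stayed within 1.5 times, and that of the interaction ran from 2 to 4. Over all genes in C vs. B, 317 rose and 386 fell with that pseudocount, 305 and 153 with TPM scaling and 342 and 438 with limma-voom. Scaling had the widest effect, since it moved the median of all genes in B vs. A from -1.10 to 0.05; limma-voom called 1211 genes higher and 6078 lower there. In B vs. A all 3 same-number pairs exceeded 0.1 and all 6 libraries correlated best with their own number, and the block changed no call there. Of the 3 pairs, 2, 2 and 1 exceeded 0.1 in C vs. B, D vs. A and C vs. D. There 4, 3 and 2 of 6 libraries correlated best with their own number, so they were not taken as pairs. The highest same-number correlation was 0.579 in D vs. A and 0.174 in B vs. A, so pairing in D vs. A was not settled. With the replicate block 8, 1, 0 and 8 genes passed both thresholds in B vs. A, C vs. B, D vs. A and C vs. D and 3 passed in the interaction, and Cdkn1b in D vs. A gained the adjusted p. Depth limits Ccnd1, Cdkn1b and Cdkn2c most in group C, where the lowest libraries held 80, 54 and 74 reads.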

Other observations

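Among 17 transcription factor genes that act upstream of the G1 cyclins and inhibitors, 3 rose and 6 fell past both thresholds in group B vs. A, with a median of -0.53. Of all genes, 10.1% rose and 53.0% fell, with a median of -1.10. Jun, an AP-1 subunit, rose from 15.6 ± 1.70 to 63.0 ± 4.33 FPKM (1.95), and Klf6, a zinc finger factor, from 24.4 ± 0.643 to 88.0 ± 6.93 (1.81). Foxo4 (-2.34), of the forkhead family that activates Cdkn1b, and Smad3 (-1.99), a mediator of TGF-beta signals, fell. With median-ratio scaling the list had 6 genes higher, 1 lower and a median of 0.49, against 2880 higher and 2551 lower of all 10448 genes tested there. Foxo4 was the gene lower (-1.67), and Smad3 stood at -0.84. In group C vs. B 1 of the 17 passed both thresholds, against 1.13% of all genes higher and 1.16% lower. It was the immediate early gene Egr1, which rose from 40.3 ± 5.88 to 238 ± 9.07 FPKM (2.54).

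Cdkn1c lies in an imprinted cluster, of which 6 listed neighbours were tested. In group B vs. A 1 of them rose and 2 fell past both thresholds, against 10.1% and 53.0% of all genes. Nap1l4, which encodes a histone chaperone, had means of 43.7 ± 1.97, 96.7 ± 4.74, 152 ± 11.6 and 43.4 ± 3.26 FPKM in groups A to D, and rose past both thresholds in group B vs. A (1.13). With TPM scaling the rise of Nap1l4 was 0.77, short of the fold threshold. Phlda2 (-1.64) and Osbpl5 (-1.07) fell, but neither passed both thresholds with median-ratio scaling (-0.61 and -0.16) or quantile normalization, where Osbpl5 turned to 0.26. In group C vs. B none of the 6 passed both thresholds, against 1.13% of all genes higher and 1.16% lower, and Nap1l4 (0.64) passed the adjusted p alone. Over the 12 libraries, which fall into groups with and without Cu/ES, the genes whose log2(FPKM + 1) was most like that of Cdkn1c among 6877 with a mean FPKM of at least 5 were Arf4 (Pearson's r = 0.995), Cadm4 (0.994), Mfsd11 (0.993), Zranb1 (0.992) and Oaz1 (0.991). Those most like Ccnd1 were Timp2 (0.999), Col3a1, Taf11, Tmed1 (each 0.998) and Cdc42ep1 (0.997). The size of a change does not enter r. Arf4 had means of 196, 303, 413 and 194 FPKM in groups A to D, and Cdkn1c 3.87, 27.4, 102 and 3.05.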
